A study of Oryza sativa with 8 samples.

Results

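Gibberellins are plant hormones that drive stem growth and, in rice flowers, tapetum function and pollen development. The first committed step of their synthesis is catalysed by ent-copalyl diphosphate synthase (CPS1). Later, GA 20-oxidases (GA20ox) and then GA 3-oxidases (GA3ox) finish the bioactive hormone, and the cytochrome P450 EUI1 inactivates it. The receptor GID1 binds the hormone and then the DELLA repressor SLR1, which the F-box protein GID2 passes on for degradation. The 10 genes described here were chosen by name for these roles. All 10 were found among the 30154 gene names of the table, 9 by Os number and 1, GA20ox2, by the symbol 20ox2 alone, as no row carries its number, Os01g0883800.

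The groups were anthers of nrpd1 knockdown plants, anthers of wild-type (WT) plants, pre-emerged panicles of nrpd1 knockdown plants and pre-emerged panicles of WT plants. NRPD1 is the largest subunit of RNA polymerase IV, a plant polymerase that makes precursors of small RNAs guiding DNA methylation. All plants were of the indica cultivar Pusa Basmati 1, grown in a greenhouse, and anthers were taken before they opened. The labels list 2 libraries per group, but the table holds 1 value per gene and group, in FPKM (fragments per kilobase of transcript, scaled by the fragments mapped in the library), so the values below have no replicate error, and whether a difference exceeds the replicate spread cannot be said. The construct behind the knockdown, the number of lines and the number of plants are not given in the sources used here. The level of NRPD1 is not analysed here, and the strength of the knockdown was therefore not verified.

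The tissue labels were set against marker lists. The 3 spikelet and panicle markers found, of 5 listed, summed to 13.1 FPKM in knockdown anther and 37.6 in WT anther, against 299 in knockdown panicle and 438 in WT panicle. Their strongest gene held 52.8% of the sum in knockdown anther, 78.7% in WT anther, 76.5% in knockdown panicle and 82.8% in WT panicle. Without that gene the sums were 6.18 FPKM in knockdown anther, 8.01 in WT anther, 70.4 in knockdown panicle and 75.4 in WT panicle. The 3 late-pollen markers summed to 20.4 FPKM in knockdown anther and 94.5 in WT anther, and to 0.304 in knockdown panicle and 7.62 in WT panicle. The 8 tapetum and early-anther markers went the other way, with 4691 FPKM in knockdown anther against 409.5 in WT anther, and 3162 in knockdown panicle against 136 in WT panicle. A single gene, the strongest of the 8, held 92.0% of the tapetum sum in knockdown anther, 90.8% in WT anther, 59.3% in knockdown panicle and 93.3% in WT panicle. Without it the sums were 373 FPKM in knockdown anther against 37.9 in WT anther, and 1286 in knockdown panicle against 9.14 in WT panicle. In both knockdown groups that remainder again came mostly from 1 gene. The stronger of its 2 listed rows had 319 FPKM in knockdown anther against 7.46 in WT anther, and 1225 in knockdown panicle against 2.42 in WT panicle. Of the 5 tapetum markers that reached 1 FPKM in either anther group, 1 was lower in the knockdown. Of the markers found, only 1 tapetum marker was listed at 0, in WT panicle. In tissue samples of this kind, fewer cells of a type and less RNA per cell cannot be told apart.

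Across the pathway, the knockdown showed a rise of GA20ox1 in both tissues and a fall of GA20ox3 and GA3ox1 in both tissues, of which the anther falls stayed short of the threshold under 2 of the 4 scalings between columns and the panicle fall of GA3ox1 did so after a share of WT anther was subtracted from WT panicle. Changes are given on the log2(FPKM + 1) scale, for genes that reached 1 FPKM in either group compared. The threshold, a change of 1 on that scale, is a rule of size and not a test. In total 5 of the genes exceeded 10 FPKM in at least 1 group, and 2, GID1 and GA3ox2, stayed under 1 FPKM in every group and were not compared. Of the 10 genes, 8 were compared in anther. GA20ox1 alone was higher by at least 1 on the log2 scale, where 7.37% of all compared genes were. Another 3 were lower (SLR1, GA20ox3 and GA3ox1), where 17.6% of all compared genes were. In panicle 6 of the 10 were compared. Again 1 was higher (GA20ox1, with 13.2% of all genes) and 2 were lower (GA20ox3 and GA3ox1, with 10.7% of all genes). Over the compared genes the median log2 change was -0.77 in anther, beside -0.15 for all genes, and -0.30 in panicle, beside -0.03 for all genes. CPS1, GA20ox2 and EUI1 in anther, and GA3ox1 in panicle, reached 1 FPKM in WT only. They were compared through that higher value alone, so the filter fixed the sign of their changes. With this and with so few genes, the counts and medians are a description only.

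**Figure D1:**
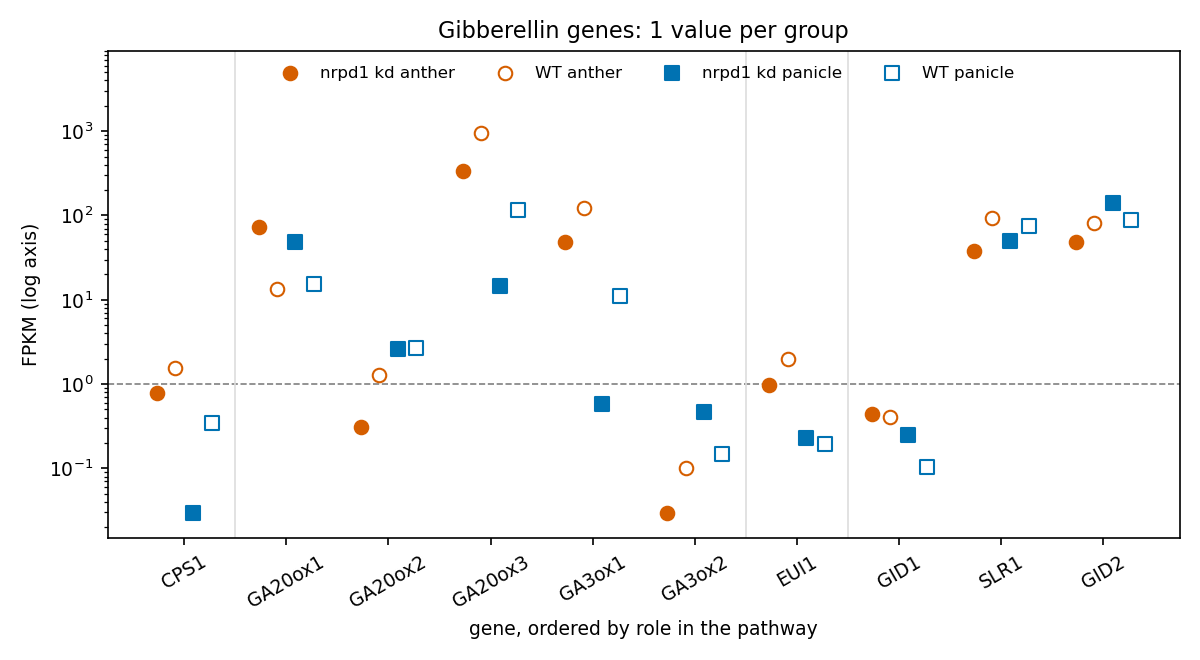
FPKM of each of the 10 gibberellin genes (log axis) in the 4 groups, 1 point per group with no error, and the dashed line at 1 FPKM. GA20ox1 was higher in both knockdown tissues than in WT, GA20ox3 and GA3ox1 were lower in both, and GID1 and GA3ox2 lay under the line throughout.

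CPS1 (Os02g0278700; chromosome 2, 10273712 to 10283774, build not given in the sources used here for this and all positions below) catalyses the first committed step. It was weakly expressed, at 0.786 FPKM in knockdown anther and 1.55 FPKM in WT anther. In panicle it stood at 0.0295 FPKM in the knockdown and 0.342 FPKM in WT and was not compared there. Its anther log2 change of -0.51 did not pass the threshold.

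The GA 20-oxidases carry out the multi-step oxidation that is a main control point of the pathway. GA20ox1 (Os03g0856700; chromosome 3, 36150487 to 36152620) had 73.6 FPKM in knockdown anther against 13.4 FPKM in WT anther. In panicle it had 47.9 FPKM in the knockdown against 15.6 FPKM in WT. Both knockdown values lay above both WT values. GA20ox1 thus rose 5.5-fold in anther and 3.07-fold in panicle by FPKM, with log2 changes of 2.37 and 1.56. In rank it stood at or above 96.4% of the 20322 genes that reached 1 FPKM in any group in knockdown anther, against 68.7% in WT anther, and at or above 91.8% in knockdown panicle against 74.7% in WT panicle. Of those 20322 genes, 1.65% were higher in both knockdown tissues. The table lists 2 rows for the locus. The fainter row held 3.69% of the stronger in knockdown anther and 3.39% in WT anther, and 2.99% in knockdown panicle and 2.635% in WT panicle, so it gives no separate measure of the rise.

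GA20ox3 (Os07g0169700; chromosome 7, 3702333 to 3705242) was the most abundant of the 10 genes in both anther groups and in WT panicle. It had 335 FPKM in knockdown anther against 942 FPKM in WT anther, and in panicle 14.5 FPKM in the knockdown against 116 FPKM in WT. The order of the groups was therefore knockdown panicle, WT panicle, knockdown anther and WT anther, from low to high. GA20ox3 fell 2.81-fold in anther and 8.0-fold in panicle by FPKM, with log2 changes of -1.49 and -2.92. Its rank barely moved in anther, at or above 99.6% of genes in the knockdown and 99.7% in WT, but stood at 71.8% in knockdown panicle against 97.7% in WT panicle. The anther fall depended on how the columns were scaled to each other: it was -0.59 (log2) with equal column totals and -0.10 with quantile normalization.

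GA20ox2 (chromosome 1, 38382384 to 38385504), the gene known from the semi-dwarf varieties of the Green Revolution, was weakly expressed. Its values were 0.310 FPKM in knockdown anther and 1.29 FPKM in WT anther, and in panicle 2.59 FPKM in the knockdown and 2.66 FPKM in WT. Nearly all of this came from a row that joins the gene with Os01g0883850, so the reads of these 2 genes cannot be separated. Knockdown anther stood below the other groups, with a log2 change of -0.81 that did not pass the threshold. With a pseudocount of 0.1 the change was -1.77 and did pass. In panicle the log2 change was -0.03.

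Since FPKM is per length, the 3 GA20ox genes can be summed. Their summed level was 408.5 FPKM in knockdown anther against 956 FPKM in WT anther, and in panicle 65.0 FPKM in the knockdown against 134 FPKM in WT. GA20ox1 made up 18.02% of that sum in knockdown anther against 1.40% in WT anther, and 73.7% in knockdown panicle against 11.6% in WT panicle. These shares compare genes within a column and do not depend on a constant scaling between columns. They do depend on the subtraction of a WT anther share described below. After it, GA20ox1 made up 22.75% and GA20ox3 73.25% of the sum in WT panicle. GA20ox3 had 4.55 times the level of GA20ox1 in knockdown anther against 70.3 times in WT anther, and 0.303 times in knockdown panicle against 7.45 times in WT panicle. Knockdown panicle was thus the only group of the 4 in which GA20ox1 exceeded GA20ox3.

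**Figure D2:**
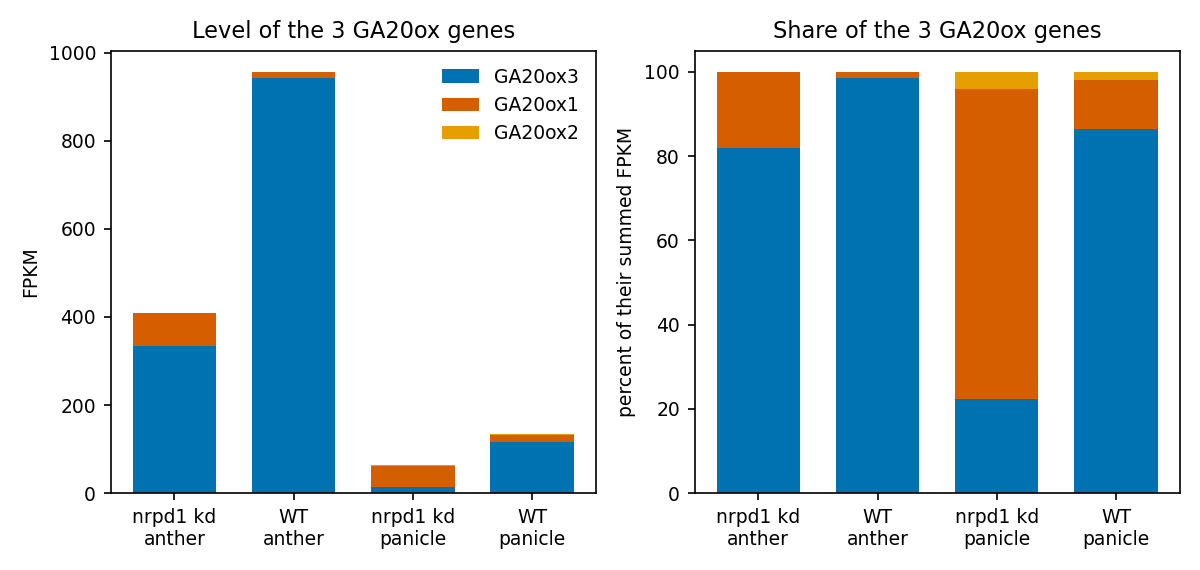
Stacked bars of GA20ox3, GA20ox1 and GA20ox2 in the 4 groups, as FPKM (left) and as percent of the 3 genes' summed FPKM (right), 1 value per group. GA20ox1 took 18.02% of the sum in knockdown anther against 1.40% in WT anther, and 73.7% in knockdown panicle against 11.6% in WT panicle. The bars are drawn without the subtraction of a WT anther share, after which GA20ox1 took 22.75% in WT panicle.

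The GA 3-oxidases carry out the last activating step. GA3ox1 (Os05g0178100; chromosome 5, 4660407 to 4662631) had 48.4 FPKM in knockdown anther against 124 FPKM in WT anther, and in panicle 0.588 FPKM in the knockdown against 11.0 FPKM in WT. The groups stood in the same order as for GA20ox3. The gene fell 2.56-fold in anther, with a log2 change of -1.34. In panicle it fell 18.7-fold by FPKM, and its log2 change of -2.91 understates this because the knockdown value is below the pseudocount. That panicle change was -0.85, short of the threshold, after the subtraction of a WT anther share described below. As for GA20ox3, the anther fall did not pass the threshold with equal totals (-0.45) or quantile normalization (-0.60). GA20ox3 and GA3ox1 were lower in both tissues, 2 of the 8 genes that reached 1 FPKM in any group, where 4.98% of the 20322 genes were. The other GA 3-oxidase, GA3ox2 (Os01g0177400; chromosome 1, 4002704 to 4005041), had 0.0299 FPKM in knockdown anther and 0.101 FPKM in WT anther, and in panicle 0.463 FPKM in the knockdown and 0.149 FPKM in WT. GA3ox1 had 1617 times its level in knockdown anther and 1231 times in WT anther, but only 1.27 times in knockdown panicle against 73.6 times in WT panicle.

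Among 31 gibberellin genes, the 10 and a wider list of 21, GA20ox3 and GA3ox1 were each other's nearest in profile. Their distance was 0.46, measured as the Euclidean distance between log2(FPKM + 1) profiles over the 4 columns, each centred on its mean. The nearest gene to GA20ox1 was 1.89 away, farther than the nearest gene of any other of the 10 genes that passed the threshold in some comparison. That nearest gene stayed under 1 FPKM in every group, where adding 1 FPKM leaves a nearly flat profile. Within the 10 genes, EUI1 and CPS1, both weakly expressed, were 0.34 apart. GID2 and GA20ox2 were 0.57 apart, and SLR1 lay nearest to a gene of the wider list, at 0.63.

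The groups stood in the same order for GA20ox3, GA3ox1 and the summed late-pollen markers. The share of all genes with this order was not counted, so whether it is particular to these genes cannot be said. Relative to WT anther, GA20ox3 stood at 35.5%, GA3ox1 at 39.0% and the summed late-pollen markers at 21.6% in knockdown anther. In knockdown panicle the levels were 1.54%, 0.474% and 0.322%, and in WT panicle 12.3%, 8.83% and 8.06%, in the same order of genes. All 3 late-pollen markers were lower in the knockdown in both tissues (2 of 3 past the threshold in anther with equal totals) and were under 1 FPKM in knockdown panicle. The part of pollen content in these falls was not tested. GA20ox1 stood at 550% of its WT anther level in knockdown anther, 357% in knockdown panicle and 116% in WT panicle. The summed tapetum markers, of which 1 gene held the larger part, stood at 1145%, 772% and 33.2% in the same order. Of the 8 tapetum markers, 3 of the 5 compared were higher in knockdown anther, where 7.37% of all genes were, and 8 of 8 in knockdown panicle, where 13.2% of all genes were. Only 3 of these 8 reached 1 FPKM in WT panicle, so the others were compared there only through their higher knockdown values. With median scaling and with equal totals, 7 of 8 were higher in panicle. With equal totals 4 of 5 were higher in anther. The part of the tapetum markers in the GA20ox1 rise was not tested either.

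**Figure D3:**
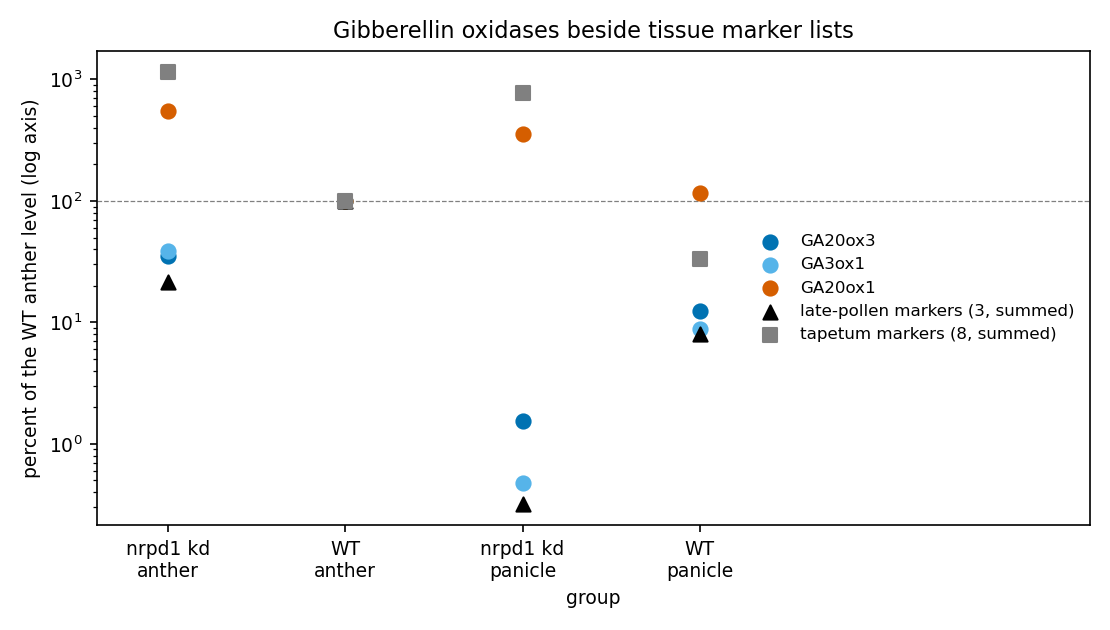
Level as percent of the WT anther level (log axis, dashed line at 100%) of GA20ox3, GA3ox1, GA20ox1 and the summed late-pollen and tapetum markers in the 4 groups, 1 value each. GA20ox3 and GA3ox1 share the group order of the late-pollen markers, at 35.5% and 39.0% beside 21.6% in knockdown anther, while GA20ox1 lies above 100% in both knockdown groups and in WT panicle.

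Transcripts abundant in WT anther were also present in WT panicle. For 180 genes that reached 200 FPKM in WT anther and stood 100 times or more above knockdown panicle, the median level in WT panicle was 7.33% of that in WT anther. With that share of the WT anther column subtracted from WT panicle, 47.0 FPKM of GA20ox3 and 1.86 FPKM of GA3ox1 were left. The panicle log2 change of GA20ox3 was then -1.63 and still past the threshold, and that of GA3ox1 was -0.85 and no longer past it. The 180 genes were chosen for their near absence from knockdown panicle and the share was taken from WT panicle alone, so the subtraction can only move panicle changes upward and says nothing about the rise of GA20ox1.

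EUI1 (Os05g0482400; chromosome 5, 23728388 to 23740188), known for the elongated uppermost internode of its mutant, was weakly expressed. It stood at 0.980 FPKM in knockdown anther and 2.01 FPKM in WT anther, a log2 change of -0.60, and at 0.229 FPKM in knockdown panicle and 0.194 FPKM in WT panicle. The anther change did not pass the threshold, and in panicle the gene was not compared.

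Among the signalling genes, the receptor gene GID1 (Os05g0407500; chromosome 5, 19868292 to 19871304) was listed at 0.438 FPKM in knockdown anther and 0.412 FPKM in WT anther, and in panicle at 0.247 FPKM in the knockdown and 0.103 FPKM in WT. It stood at or above 10.9% of the 20322 genes at most, in WT anther. Its partners were far more abundant. SLR1 (Os03g0707600; chromosome 3, 28512603 to 28515532) had 38.0 FPKM in knockdown anther against 93.1 FPKM in WT anther, and in panicle 50.2 FPKM in the knockdown against 75.4 FPKM in WT. Both knockdown values lay below both WT values. SLR1 fell 2.45-fold in anther (log2 change -1.27), while its panicle change of -0.57 did not pass the threshold. The anther fall was -0.39 with equal totals and -0.59 with quantile normalization, past the threshold with neither.

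GID2 (Os02g0580300; chromosome 2, 22333296 to 22337742) had 48.7 FPKM in knockdown anther against 81.3 FPKM in WT anther, and in panicle 141 FPKM in the knockdown against 87.7 FPKM in WT. As reported, the 2 WT groups lay close together, with knockdown anther below them and knockdown panicle above. The log2 change of WT anther over WT panicle was -0.11. It was -0.83 with equal totals and -0.71 with quantile normalization, so the closeness depended on the scaling. The knockdown log2 changes of GID2, -0.73 in anther and 0.68 in panicle, did not pass the threshold, and the anther value turned to 0.16 with equal totals. GID2 had 1.28 times the level of SLR1 in knockdown anther against 0.873 times in WT anther, and 2.82 times in knockdown panicle against 1.16 times in WT panicle.

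**Figure D4:**
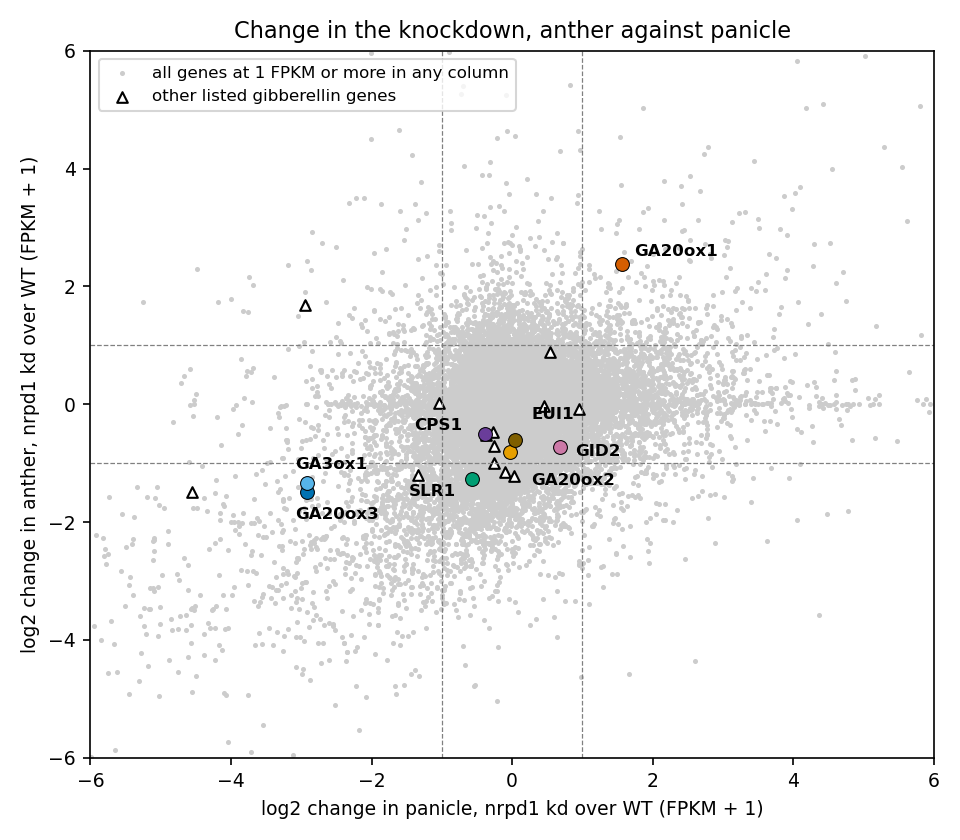
Log2 change (knockdown over WT, FPKM + 1) in anther against panicle for the genes at 1 FPKM or more in any group (grey, with 68 genes beyond the axes not drawn), the named gibberellin genes compared in either tissue and other listed gibberellin genes (triangles). Dashed lines mark a change of 1, and GA20ox1 lies past both lines upward while GA20ox3 and GA3ox1 lie past both downward.

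Anther change minus panicle change was at least 1 either way on the log2 scale for 3 of the 8 genes that reached 1 FPKM in any group, where it was for 32.0% of the 20322 genes, a share near that of the 8. It was 1.43 for GA20ox3, 1.57 for GA3ox1 and -1.41 for GID2. No test of these differences was possible. After the subtraction described above they were 0.14 for GA20ox3 and -0.49 for GA3ox1. The scaling changed which genes made up the 3. With equal totals the difference was -0.37 for GID2, 1.82 for GA20ox1, 2.49 for GA20ox3 and 2.64 for GA3ox1. With quantile normalization it was -0.50 for GID2, 1.34 for GA20ox1, 3.10 for GA20ox3 and 2.33 for GA3ox1.

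The tissues themselves were compared in WT and, separately, in the knockdown. In WT, 3 of the 8 compared genes were higher in anther than in panicle, where 20.4% of all genes were, and none was lower, where 18.1% were. These were GA20ox3 (log2 change 3.01), GA3ox1 (3.39) and EUI1 (1.33). EUI1 was at 0.97, short of the threshold, with equal totals. It was compared only through its higher WT anther value, so the filter fixed its direction. With a filter at 5 FPKM 2 genes were higher, without EUI1. In the knockdown, 2 of 6 compared genes were higher in anther (14.0% of all genes) and 2 were lower (22.5% of all genes). GA20ox3 (4.44) and GA3ox1 (4.96) were higher, and GID2 (-1.52) and GA20ox2 (-1.45) were lower. In the knockdown GA3ox1 reached 1 FPKM in anther only and GA20ox2 in panicle only, so the filter fixed the direction of both. GA20ox1, SLR1 and CPS1 passed the threshold in neither comparison of tissues. CPS1 was compared in WT only, through its higher WT anther value, with a change of 0.92. That change passed the threshold at 1.06 with quantile normalization, 1.90 with a pseudocount of 0.1 and 1.05 with the WT anther share subtracted.

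**Figure D5:**
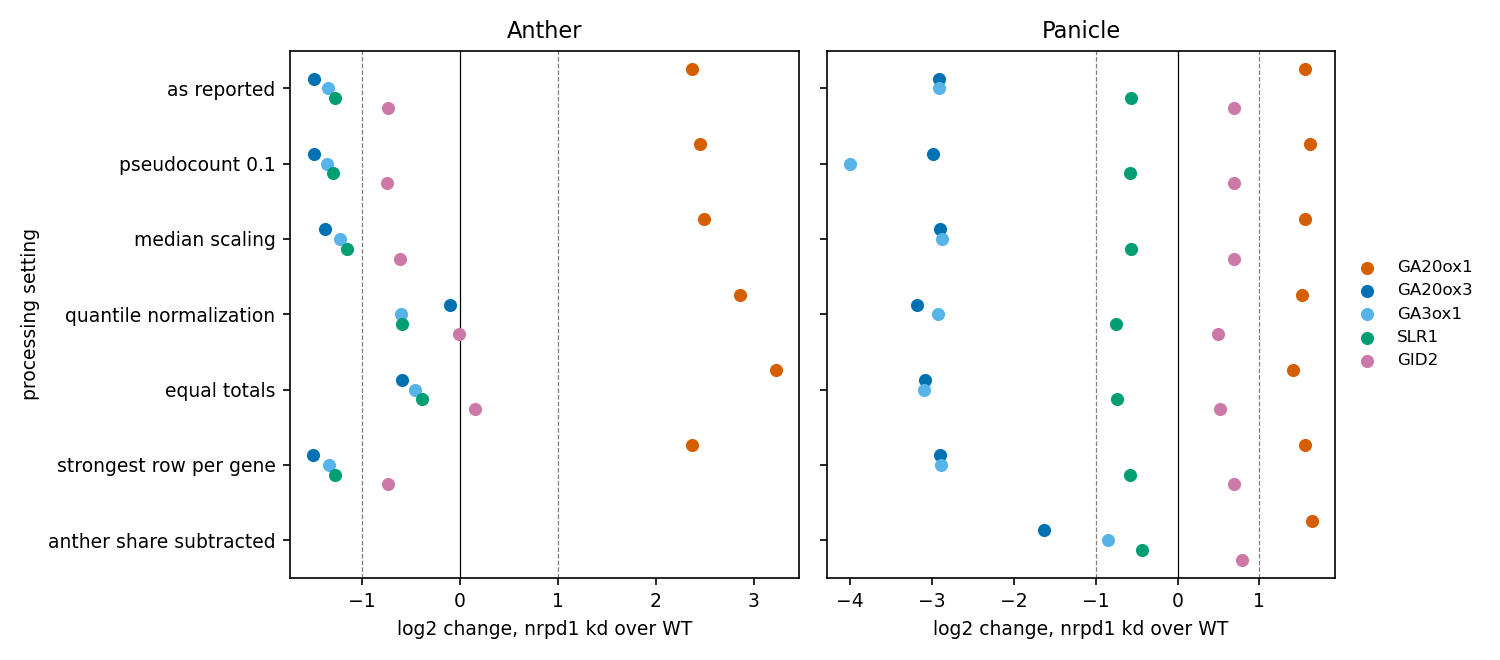
Log2 change (knockdown over WT) of GA20ox1, GA20ox3, GA3ox1, SLR1 and GID2 in anther (left) and panicle (right) under each processing setting, with dashed lines at a change of 1 and the share subtracted in panicle only. GA20ox1 stays right of the line in both tissues under every setting drawn, of which the subtraction could not move it left, while the anther falls of GA20ox3, GA3ox1 and SLR1 lie inside the lines with quantile normalization and equal totals.

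The wider list held 21 other genes of gibberellin synthesis, inactivation and signalling, all found, which the files give by Os number only and which are therefore counted and not named. In anther 11 were compared, of which 1 was higher and 4 were lower in the knockdown, with a median log2 change of -0.71. Over all compared genes 7.37% were higher and 17.6% lower, with a median of -0.15. With equal totals 2 of 9 were higher and none was lower in anther, and with quantile normalization 1 of 11 was lower. In panicle 11 were compared, of which none was higher and 4 were lower, with a median of -0.26. Over all compared genes 13.2% were higher and 10.7% lower there, with a median of -0.03. In each tissue some of the lower genes reached 1 FPKM in WT only. They were compared through that higher value alone, so the filter fixed their direction. Other compared genes reached 1 FPKM in the knockdown only. The counts and medians of this list are therefore a description only. The most abundant of the 21 in WT anther had 103 FPKM in knockdown anther against 289 FPKM in WT anther, and in panicle 0.775 FPKM in the knockdown against 40.9 FPKM in WT. Its groups stood in the same order as those of GA20ox3 and GA3ox1. Another passed the threshold in opposite directions, with 10.1 FPKM in knockdown anther against 2.46 FPKM in WT anther, and in panicle 4.84 FPKM in the knockdown against 43.8 FPKM in WT.

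The loci next to the 10 genes were examined as well. Of the 20 nearest, 1 on each side of each gene and with all rows of a locus summed, 15 were compared in anther, with 2 higher and 1 lower, where 7.37% of all genes were higher and 17.6% lower. In panicle 15 were compared, with 2 higher and none lower, where 13.2% of all genes were higher and 10.7% lower. In anther each locus called higher or lower reached 1 FPKM only in the group where it was higher, so the filter fixed its direction. The same held in panicle for the locus before GA3ox1. With so few loci these counts are a description only. Beside GA20ox1, the locus 15.8 kb before it had a log2 change of -0.43 in anther and -0.58 in panicle, and the locus 19.0 kb after it had 0.20 in panicle and was not compared in anther. Beside GA20ox3, the locus 0.58 kb before it had 410 FPKM in knockdown anther against 602 FPKM in WT anther, a log2 change of -0.55, and a change of -0.80 in panicle. Beside GA3ox1, the locus 2.17 kb before it rose in panicle, with 11.6 FPKM in the knockdown against 0.370 FPKM in WT.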

How the data were processed

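Messenger RNA was sequenced with a strand-keeping library kit, per the labels' protocols. Trimmomatic, HISAT2 and Cufflinks 2.2.1 are named in the submitters' processing notes, and the genome build and annotation are not given in the sources used here. The authors deposited FPKM values (fragments per kilobase of transcript, scaled by the mapped fragments of the library), 1 column per group. The labels list 2 replicates per group, and how these became 1 column is not given in the sources used here. The values carry no depth, so no interval or detection floor is given.

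Rows that carry a gene's Os number or symbol were summed per gene, and rows sharing a name were summed for the background over all 30154 names. Changes were taken on the log2(FPKM + 1) scale, where differences between low values shrink. Genes under 1 FPKM in both columns of a comparison were left out, and a gene was counted as higher or lower from a log2 change of 1 in either direction. With 1 value per group no test was possible, and the threshold is a rule of size. All 10 genes are named. The counting step was tested on simulated data. The genes, the wider gibberellin list and the marker lists were chosen with earlier results of these data known, and the assignment of Os numbers to the wider list and to the markers comes from general knowledge and not from the files. Alternatives were a pseudocount of 0.1, no filter, a filter at 5 FPKM, median scaling, quantile normalization, equal column totals, single-gene rows, the strongest row per gene, a log2 threshold of 2, and removal from WT panicle of a share of WT anther. Python 3.11.15, numpy 2.4.6, pandas 2.3.3 and matplotlib 3.10.9 were used.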

Additional observations from a re-analysis of the deposited data

Results flagged for a closer look

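GID2 had changes of opposite sign in the 2 tissues under the same contrast, -0.73 in anther and 0.68 in panicle on the log2 scale. Each group has 1 value, so the difference was not tested, and neither change passed the threshold. The opposite signs depended on the scaling, with an anther change of 0.16 with equal totals and -0.01 with quantile normalization, where the panicle change was 0.52 and 0.49. Among the 21 other gibberellin genes, 1 passed the threshold in opposite directions, with 1.68 in anther and -2.94 in panicle. That difference was not tested either, and the signs stayed opposite under the 3 other scalings, with anther changes up to 2.38 and panicle changes down to -3.13.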

How the results depend on the processing

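No paired analysis was possible because replicates have no columns of their own. Leaving out single libraries and fitting limma, which need such columns, were not run. GA20ox1 stayed higher in both tissues and GA20ox3 lower in panicle under each of the alternatives run, except that the panicle rise of GA20ox1 did not reach a log2 threshold of 2. The subtraction of an anther share is no check of that rise, since it cannot lower a panicle change.

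Of the anther changes, the 3 lower genes (GA20ox3, GA3ox1 and SLR1) became 0 with quantile normalization, 0 with equal totals and 0 at a log2 threshold of 2. Equal totals shifted the median anther change of all genes to 0.60, so the fall of these genes is relative to the scaling chosen. In panicle, subtraction of the anther share left 1 lower gene, and a threshold of 2 left 0 higher. Equal totals gave 1 gene lower in the WT anther column relative to WT panicle. For knockdown anther against knockdown panicle, the 2 lower genes became 1 with a filter at 5 FPKM, 1 with single-gene rows and 0 at a threshold of 2. Genes whose change differed between tissues, an analysis whose alternatives were chosen after seeing the data, fell to 1 with the share subtracted and to 0 at a threshold of 2. With the share subtracted, the GA3ox1 difference changed sign to -0.49. The 75 other recomputed counts stayed within 1.5 times the reported ones. The list counts under other scalings were also added after seeing the data. Depth is unknown, so how well the genes under 1 FPKM were measured cannot be stated.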
